A study of Homo sapiens with 8 samples.

Results

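Nascent transcription of 10 genes of the Jumonji (JmjC) family, KDM2A, KDM2B, KDM3A, KDM3B, KDM4A, KDM4B, KDM4C, KDM5B, KDM6B, and JMJD6, was read from PRO-seq counts of HCT116 cells, an established human colorectal carcinoma line. They were taken as the rows with these symbols among the 23193 genes counted, and each had exactly 1 row in the gene body table and 1 in the table of transcription start site (TSS) regions. In PRO-seq, polymerases engaged on DNA extend their RNA in purified nuclei, and the reads therefore measure transcription in progress and not accumulated mRNA. The 8 libraries came from 4 groups of 2 independently prepared samples of nuclei. WT cells in normoxia (21% O2), WT cells after 90 min at 1% O2, HIF1A-/- cells in normoxia, and HIF1A-/- cells after 90 min at 1% O2 all received DMSO as the vehicle. The HIF1A-/- cells are a single knockout derivative of HCT116, in which virus-mediated homologous recombination removed part of exons 3 and 4 of HIF1A, and so differences between the genotypes cannot be told apart from differences between these lines.

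JmjC enzymes are dioxygenases that use iron, 2-oxoglutarate, and molecular oxygen, and the demethylases among them hydroxylate methyl groups, which then leave as formaldehyde. Oxygen is therefore a substrate of these proteins, and several of their genes are known targets of the HIF transcription factors, which bind short DNA elements with the core ACGTG or GCGTG. KDM2A and KDM2B act on methylated H3K36, KDM3A and KDM3B on H3K9, KDM4A, KDM4B, and KDM4C on H3K9 and H3K36, KDM5B on H3K4, and KDM6B on H3K27. JMJD6 is best known as a lysyl hydroxylase of splicing proteins.

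The start used for each gene and its surroundings were read from the GRCh37 genome, the build of the files, in a window of 250 bases before to 50 bases from the TSS on. The windows of KDM3A, KDM4B, and KDM4C are printed because these are the members whose gene bodies rose in hypoxia, and those of KDM3B and KDM4A because these are their closest relatives whose gene bodies did not pass the test. Sequences run 5′ to 3′ on the strand of the gene, and capitals mark ACGTG or GCGTG and, for the opposite strand, CACGT or CACGC.
KDM3A (chr2:86668333-86668632, plus strand): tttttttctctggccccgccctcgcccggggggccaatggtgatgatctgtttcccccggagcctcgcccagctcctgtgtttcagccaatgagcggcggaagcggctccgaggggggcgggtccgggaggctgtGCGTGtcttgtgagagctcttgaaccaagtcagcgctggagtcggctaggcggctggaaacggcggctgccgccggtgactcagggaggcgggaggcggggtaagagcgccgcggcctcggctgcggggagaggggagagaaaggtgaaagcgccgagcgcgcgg
KDM3B (chr5:137688034-137688333, plus strand): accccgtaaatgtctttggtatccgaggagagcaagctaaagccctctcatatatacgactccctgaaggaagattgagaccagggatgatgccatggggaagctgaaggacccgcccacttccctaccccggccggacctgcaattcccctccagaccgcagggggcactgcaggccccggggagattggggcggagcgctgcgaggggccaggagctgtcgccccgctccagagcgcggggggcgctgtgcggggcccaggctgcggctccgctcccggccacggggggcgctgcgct
KDM4A (chr1:44115546-44115845, plus strand): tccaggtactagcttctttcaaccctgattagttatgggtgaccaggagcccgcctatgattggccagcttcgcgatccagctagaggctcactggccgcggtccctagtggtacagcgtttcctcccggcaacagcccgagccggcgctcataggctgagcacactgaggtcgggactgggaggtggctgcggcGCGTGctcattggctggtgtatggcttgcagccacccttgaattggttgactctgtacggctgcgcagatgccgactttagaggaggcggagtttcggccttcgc
KDM4B (chr19:4968873-4969172, plus strand): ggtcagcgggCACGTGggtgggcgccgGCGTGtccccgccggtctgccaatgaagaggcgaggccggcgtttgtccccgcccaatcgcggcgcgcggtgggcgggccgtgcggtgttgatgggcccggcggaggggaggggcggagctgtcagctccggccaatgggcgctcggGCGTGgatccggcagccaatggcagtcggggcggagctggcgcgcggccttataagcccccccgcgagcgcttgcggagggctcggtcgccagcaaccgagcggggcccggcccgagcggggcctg
KDM4C (chr9:6757390-6757689, plus strand): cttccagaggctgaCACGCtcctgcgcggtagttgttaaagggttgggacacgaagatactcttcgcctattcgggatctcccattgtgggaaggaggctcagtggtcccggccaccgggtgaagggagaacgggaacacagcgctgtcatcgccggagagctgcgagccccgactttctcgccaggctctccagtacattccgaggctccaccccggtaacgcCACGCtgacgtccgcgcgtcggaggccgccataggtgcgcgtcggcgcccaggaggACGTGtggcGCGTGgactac
The KDM3A window held a single match, GCGTG, that begins 115 bases before the TSS, while the KDM3B window held none. KDM4A had 1 GCGTG, 55 bases before its TSS. In the KDM4B window, the palindrome CACGTG, which counts as ACGTG on each strand, began 240 bases before the TSS, and copies of GCGTG began at 223 and 76 bases before it. KDM4C had 1 ACGTG and 3 GCGTG, of which ACGTG and a copy of GCGTG lay 30 and 39 bases downstream of the TSS. Either motif, on either strand, was found in 6 of the 10 members, the others being KDM2B and JMJD6. Among 23190 windows of the same length at the TSS of all genes in the table, 53.0% held at least one of them, 22.5% held ACGTG, and 41.1% held GCGTG. JMJD6 held 3 matches to ACGTG, with a CACGTG palindrome counted on each strand, and 1 to GCGTG. By this count, which also takes the palindrome of KDM4B on each strand, its total equaled those of KDM4B and KDM4C. The TSS regions of KDM2B and KDM5B had at most 7 reads per library. The TSS of KDM6B lay 5699 bp downstream of its outermost annotated start. Whether these windows are promoters in use was not tested. A match is a description of the letters in this window and not of binding.

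Gene body reads totaled 18125234 to 23622392 per library and TSS reads 2783581 to 5966348, and TSS regions took 11.2% of the counted reads in replicate 1 of HIF1A-/- normoxia against 20.2% in replicate 2 of WT hypoxia. Across genes, the 2 replicates of each group correlated with Pearson's r of 0.982 to 0.989 in gene bodies and 0.966 to 0.982 at the TSS. The HIF1A gene body itself ran from 129 to 172 reads per 1000000 counted (CPM), and the deletion inside it leaves the TSS in place, so its nascent reads do not check the genotype. Of 7 epithelial markers, EPCAM, KRT8, KRT18, and CDH1 were transcribed in every library, KRT20 had 0.105 to 10.3 CPM, and CDX1 and VIL1 stayed at or below 0.635 CPM. Among 5 markers of other cell types, PTPRC, COL1A2, PECAM1, and CD3E had at most 0.444 CPM, and COL1A1 had 19.0 to 50.3 CPM.

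All 10 members passed the low-count filter in both tables. The gene body region of KDM3A, KDM3B, KDM4A, KDM4B, KDM2B, and KDM5B covered 96.5% to 99.5% of the length of the gene in the GENCODE annotation. For the others, the authors' choice of 1 start and 1 end per gene left a part of it. KDM4C was counted over 56.5 kb of 455 kb (chromosome 9, 6758641 to 6815149), KDM2A over 17.0 kb of 139 kb (chromosome 11, 67008506 to 67025553), JMJD6 over 7.36 kb, or 52.7% of its length (chromosome 17, 74714523 to 74721880), and KDM6B over 13.9 kb of 20.6 kb (chromosome 17, 7744235 to 7758118). The TSS used for KDM2A and KDM4C lay 120771 and 36777 bp downstream of the outermost annotated start. For KDM5B it lay at −983 bp from the nearest annotated start, which is upstream, and the gene body region began 18 bp past that start, so that reads near the annotated promoter of KDM5B fall in its gene body. Further annotated starts lay inside the gene body region of every member, including 11 of 17 for KDM2B and 32 of 36 for KDM5B, and reads from any start in use there count as gene body reads.

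In WT normoxia, read density per kb of gene body (CPM per kb) was highest for KDM6B, at 7.09 and 7.60 in the 2 libraries, above 93.6% of the genes tested. JMJD6 followed with 4.67 and 7.96 and KDM2A with 3.82 and 5.05, and each of these ranges overlapped its neighbor. KDM4A (2.18 and 2.39) and KDM3B (2.02 and 2.06) came next, each apart from its neighbors. The ranges of KDM3A, KDM4B, KDM5B, and KDM2B, between 0.787 and 1.15 CPM per kb, overlapped along the order. KDM4C had the lowest mean, above 36.7% of the genes tested. Its values of 0.738 and 0.788 just reached the range of KDM5B. In WT hypoxia, the group mean of KDM3A was the third highest of the 10, at 5.86 CPM per kb, and KDM4B ranked 5 of 10, at 3.10.

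Gene bodies of 3 of the 10 members rose in WT cells within 90 min of hypoxia, and 0 fell, at an adjusted p under 0.1 in edgeR's quasi-likelihood test. Over all 16686 gene bodies tested, the same call was made for 72 (0.431%). The members were chosen with earlier results of these data known, so this contrast is a description and not a test. The 3 were KDM3A, KDM4B, and KDM4C, a demethylase of H3K9 and both of the H3K9 and H3K36 demethylases other than KDM4A. The median log2 fold change of the 10 members was 0.28, against −0.02 over all gene bodies. In the main gene body and TSS fits, p-values measure the spread between the 2 nuclei preparations within groups. That spread is estimated per gene over all 4 groups together and drawn toward that of other genes. Fits with the replicate number as a block, given below, measure what is left after its effect. For the ratio of TSS to gene body, the spread is that of the ratio. CPM are shares of a library, so an equal change at all genes would not be seen, and fewer transcribing cells cannot be told apart from fewer polymerases per cell.

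**Figure D1:**
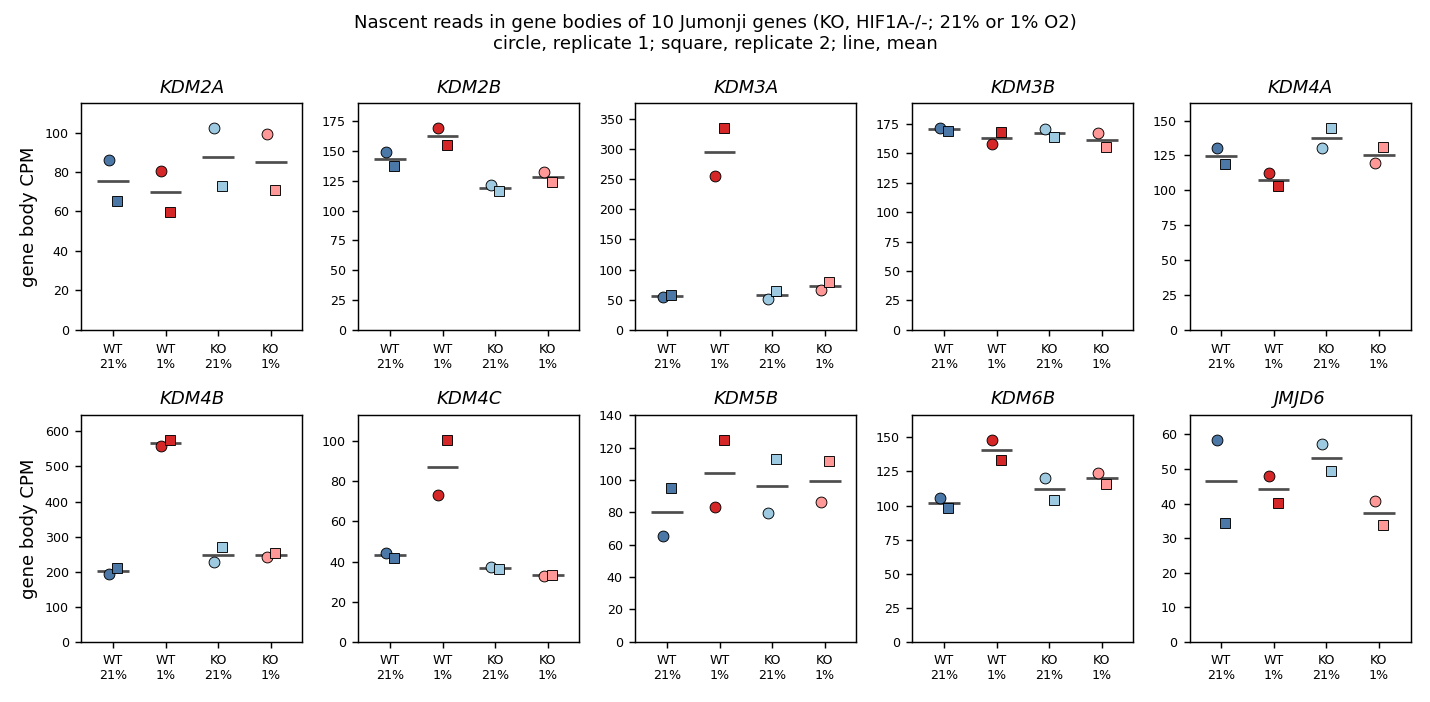
Gene body CPM of each member (y axis, from 0) in WT and HIF1A-/- (KO) cells at 21% or 1% O2, with a circle for replicate 1, a square for replicate 2, and a line at the mean of the 2. KDM3A, KDM4B, and KDM4C stand apart in WT hypoxia alone, while KDM3B stays between 155 and 172 CPM in all 8 libraries.

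KDM3A, which removes mono- and dimethylation from H3K9, had 55.2 and 57.1 CPM in its gene body (chromosome 2, 86669584 to 86719839) in WT normoxia and 254 and 335 CPM in WT hypoxia. In HIF1A-/- cells it had 52.0 and 64.6 CPM in normoxia and 66.2 and 79.2 CPM in hypoxia. Both WT hypoxia libraries lay above all 6 others by a wide margin. The log2 fold change in WT cells was 2.39 (SE 0.188, adjusted p = 0.00537 from edgeR's test), the fourth smallest p of all gene bodies. KDM3B, its paralog with the same substrates (chromosome 5, 137689285 to 137772716), had 172 and 168.9 CPM in WT normoxia and 158 and 168 CPM in WT hypoxia. Its log2 fold change of −0.06 had a 95% interval of −0.32 to 0.20, and the change was not called (adjusted p = 0.919 from edgeR's test).

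Among the KDM4 enzymes, KDM4B (chromosome 19, 4970124 to 5153609) had 194 and 212 CPM in WT normoxia and 559.8 and 577 CPM in WT hypoxia, and in HIF1A-/- cells 227 and 271 CPM in normoxia and 243 and 253 CPM in hypoxia. The WT hypoxia libraries were the highest of the 8 and close to each other. Its log2 fold change in WT cells was 1.49 (SE 0.131, adjusted p = 0.00633 from edgeR's test). KDM4C had 44.5 and 41.7 CPM in WT normoxia and 73.3 and 101 CPM in WT hypoxia, and in HIF1A-/- cells 37.1 and 36.2 CPM in normoxia and 33.0 and 33.3 CPM in hypoxia. Here too the WT hypoxia libraries were the top pair, although they differed more from each other. The log2 fold change was 1.01 (SE 0.171, adjusted p = 0.0890 from edgeR's test), which is close to the threshold. KDM4A (chromosome 1, 44116797 to 44171189) had 130.02 and 119 CPM in WT normoxia and 112 and 103 CPM in WT hypoxia, a log2 fold change of −0.21 with a 95% interval of −0.50 to 0.09 that was not called (adjusted p = 0.897 from edgeR's test). Its region shares bases with KDM4A-AS1 on the other strand, which had 143 to 369 reads per library against 2121 to 3148 for KDM4A; the library is strand-specific by its label, and the use of strand in counting is not given in the sources used here.

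KDM6B, the H3K27 demethylase, had 106 and 98.4 CPM in WT normoxia and 148 and 133 CPM in WT hypoxia, and 120.1, 104, 124, and 116 CPM in the HIF1A-/- libraries in the order normoxia, normoxia, hypoxia, hypoxia. The WT groups did not overlap, and the HIF1A-/- groups did. Its log2 fold change in WT cells was 0.47 (SE 0.131) and was not called (adjusted p = 0.632 from edgeR's test), but it was called once the replicate number entered edgeR's fit as a block (adjusted p = 0.0297), a fit that called 5.51% of all gene bodies. KDM5B, an H3K4 demethylase (chromosome 1, 202694312 to 202777597), had 65.5 and 95.1 CPM in WT normoxia and 83.6 and 125 CPM in WT hypoxia. These groups overlapped, with replicate 2 the higher in each. Both WT pairs of the same replicate number rose, by 0.35 and 0.40 on the log2 scale. The fitted log2 fold change of 0.38 (SE 0.277) had an adjusted p of 0.897 in edgeR's test and of 0.0773 with the block.

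The remaining members were not called in WT cells by either fit. KDM2B (chromosome 12, 121866898 to 122017919), which also links Polycomb complexes to CpG islands, had 149 and 137 CPM in normoxia and 169.5 and 155 CPM in hypoxia, a log2 fold change of 0.18 with a 95% interval of −0.09 to 0.45. KDM2A went from 86.1 and 65.2 CPM to 80.6 and 59.6 CPM, and its interval ran from −0.70 to 0.48. JMJD6 went from 58.5 and 34.4 CPM to 48.0 and 40.2 CPM, with an interval of −0.66 to 0.50. For KDM2A and JMJD6 the groups overlapped and the intervals are too wide to tell a modest change from none. In all, 5 of the 10 members had both WT hypoxia libraries above both WT normoxia libraries, as did 18.3% of all gene bodies tested.

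The calls in WT cells depended on which libraries were in the fit. With 1 library left out at a time, the log2 fold changes ran from 2.18 to 2.59 for KDM3A and 1.42 to 1.56 for KDM4B. That of KDM4C ran from 0.77 to 1.24. When either WT normoxia library was left out, 0 members and 0 of all gene bodies were called, by edgeR's test with the lone library assumed to vary like the other groups. The log2 fold changes of KDM3A were then 2.37 and 2.42, with adjusted p = 0.116 and 0.155 from edgeR's test. Those of KDM4B were 1.42 and 1.56 (adjusted p = 0.190 and 0.155 from edgeR's test), and those of KDM4C were 1.06 and 0.97 (adjusted p = 0.817 and 0.745 from edgeR's test). KDM4C was also lost without replicate 2 of WT hypoxia, where its log2 fold change was 0.77 (adjusted p = 0.584 from edgeR's test), without either HIF1A-/- hypoxia library (adjusted p = 0.137 and 0.133 from edgeR's test), and when the WT libraries were fitted alone (adjusted p = 0.153 from edgeR's test).

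**Figure D2:**
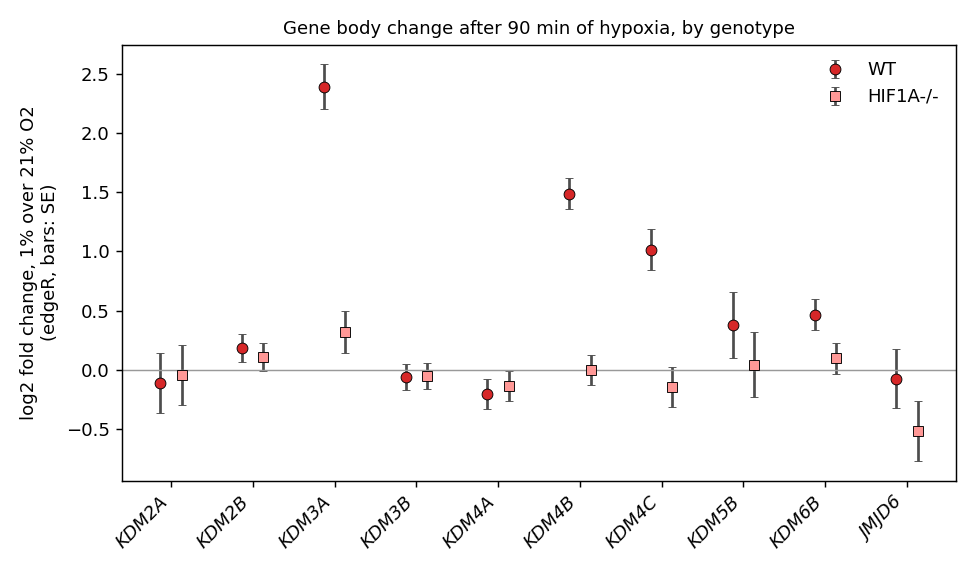
Gene body log2 fold change of 1% over 21% O2 (y axis) for each member in WT (circles) and HIF1A-/- cells (squares), with bars for the SE from edgeR (2 libraries per group). KDM3A at 2.39, KDM4B at 1.49, and KDM4C at 1.01 stand above the other WT values, and the HIF1A-/- values lie between −0.52 and 0.32.

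In HIF1A-/- cells, 0 of the 10 members were called in either direction after 90 min of hypoxia by edgeR's quasi-likelihood test, 0 had an unadjusted p under 0.05, and DESeq2 called 0. Over all gene bodies the share called was 0% by edgeR's test and 0.0479% by DESeq2. By edgeR's test, 175 were higher and 172 lower at an unadjusted p under 0.05. The median log2 fold change of the members was −0.02. KDM3A had the largest increase, 0.32 (SE 0.180), with both hypoxia libraries above both normoxia libraries, and its 95% interval was −0.10 to 0.74. KDM4B, at −0.004 (interval −0.30 to 0.29), and KDM4C, at −0.15 (interval −0.54 to 0.25), had intervals that end below their WT estimates. JMJD6 had the largest decrease, −0.52 (SE 0.251), from 57.2 and 49.4 CPM to 40.6 and 33.8 CPM, so that the groups did not overlap, but it was not called (adjusted p = 1 from edgeR's test). The log2 fold changes of the other 6 members, KDM2A, KDM2B, KDM3B, KDM4A, KDM5B, and KDM6B, lay between −0.14 and 0.10.

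The response itself differed between the genotypes for 2 members. For KDM3A, the log2 fold change in WT cells exceeded that in HIF1A-/- cells by 2.07 (SE 0.257), and for KDM4B by 1.49 (SE 0.182), each with adjusted p = 0.0799 from edgeR's test of this difference. Over all gene bodies, 9 (0.0539%) were called in this direction and 0 in the other. KDM4C differed by 1.16 (SE 0.241, adjusted p = 0.548 from edgeR's test), a difference that edgeR called when blocked by replicate (adjusted p = 0.0953; 0.384% of all gene bodies called) and that DESeq2 called without the block (adjusted p = 0.0176; 0.408%). KDM6B differed by 0.37, with a 95% interval of −0.06 to 0.79. The calls for KDM3A and KDM4B were lost in each fit that left out a library, except the fit without replicate 1 of HIF1A-/- normoxia, where both had adjusted p = 0.0570 from edgeR's test. In these fits the difference for KDM3A ran from 1.86 to 2.27 and that for KDM4B from 1.35 to 1.64. Both were also lost without TMM factors (adjusted p = 0.156 each from edgeR's test) and with the filter at 2 CPM (adjusted p = 0.131 and 0.114 from edgeR's test). Across the 15 alternatives, KDM3A and KDM4B were each called in 6. Among these were DESeq2 and edgeR with the replicate block, which called 0.408% and 0.384% of all gene bodies.

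Compared directly in hypoxia, HIF1A-/- cells had lower gene body counts than WT cells at 3 members and higher counts at 0, and 2.79% of all gene bodies were called lower. These were again KDM3A, KDM4B, and KDM4C, with log2 differences of −2.02 (SE 0.185), −1.20 (SE 0.130), and −1.39 (SE 0.172). Their adjusted p from edgeR's test were 0.00216, 0.00432, and 0.00741. All 3 were called in each of the 16 alternatives, with a highest adjusted p of 0.0633 for KDM4C from edgeR's test. The replicate block called 28.2% of all gene bodies in either direction and 6 members, the others being KDM2A, which was higher in HIF1A-/- cells, and KDM2B and KDM6B, which were lower. In normoxia, 0 members differed between the genotypes by edgeR's test, 0 had an unadjusted p under 0.05, and DESeq2 called 0. Of all gene bodies, edgeR's test called 1.78% and DESeq2 called 3.78%. By edgeR's test, 654 were higher and 848 lower at an unadjusted p under 0.05. KDM2B at −0.27 and KDM4B at 0.30 on the log2 scale were called there by edgeR only when blocked by replicate (adjusted p = 0.0953 and 0.0930), where 10.3% of all gene bodies were called. At KDM4B both HIF1A-/- normoxia libraries, at 227 and 271 CPM, lay above the WT ones, at 194 and 212 CPM, and in hypoxia the order was the opposite.

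TSS regions, which run from 50 bp before to 500 bp past the start and hold the polymerases paused near the promoter, gave no called change for any member. By edgeR's test 0 of 10 were called in each of the 5 comparisons, against shares of all 15212 TSS regions of 0.046% for hypoxia in WT cells, 0% for hypoxia in HIF1A-/- cells, 0.00657% for the difference in response, 0.657% for the genotypes in normoxia, and 1.1% for the genotypes in hypoxia. DESeq2 also called 0 members in each, against 0.0986%, 0%, 0.0197%, 0.901%, and 2.05% of all TSS regions in the same order. At an unadjusted p under 0.05 there were 2 members in WT hypoxia, KDM3A and KDM4C, 1 between the genotypes in hypoxia, KDM3A, and 0 in the other 3 comparisons. Of all 15212 TSS regions, 371 were higher and 240 lower at this level in WT hypoxia. Between the genotypes in hypoxia, 1118 were higher and 961 lower, and between the genotypes in normoxia, 648 were higher and 567 lower. For hypoxia in HIF1A-/- cells 77 were higher and 58 lower, and for the difference in response 125 were higher and 55 lower. The most reads by far were at the TSS of KDM2A, with 727 to 1733 per library. KDM2B and KDM5B had 0 to 7 and 0 to 5 TSS reads per library, while their gene bodies had at least 2490 and 1322, so that no fold or ratio is given for them there.

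The TSS of KDM3A had 104 and 72 reads (23.1 and 18.8 CPM) in WT normoxia and 170 and 206 reads (35.7 and 35.3 CPM) in WT hypoxia. In HIF1A-/- cells it had 12.3 and 19.3 CPM in normoxia and 13.9 and 22.4 CPM in hypoxia, and only the WT hypoxia libraries lay above the rest. Its log2 fold change in WT cells was 0.76 (SE 0.310, adjusted p = 0.922 from edgeR's test). In hypoxia HIF1A-/- cells differed from WT cells by −0.95 (SE 0.315, adjusted p = 0.230 from edgeR's test), which edgeR called when blocked by replicate (adjusted p = 0.0207), along with 14.4% of all TSS regions. KDM4C went from 63.5 and 76.8 CPM to 86.0 and 101 CPM with hypoxia in WT cells, and its log2 fold change was 0.41 (SE 0.184, adjusted p = 0.922 from edgeR's test). KDM6B, with 34 to 80 TSS reads per WT library, had a log2 fold change of 0.61 (SE 0.330). The WT normoxia libraries of KDM4B disagreed, with 77 and 16 reads against 51 and 79 in WT hypoxia, and its log2 fold change of 0.17 became 1.54 when replicate 1 of WT normoxia was left out and −0.49 when replicate 2 was.

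**Figure D3:**
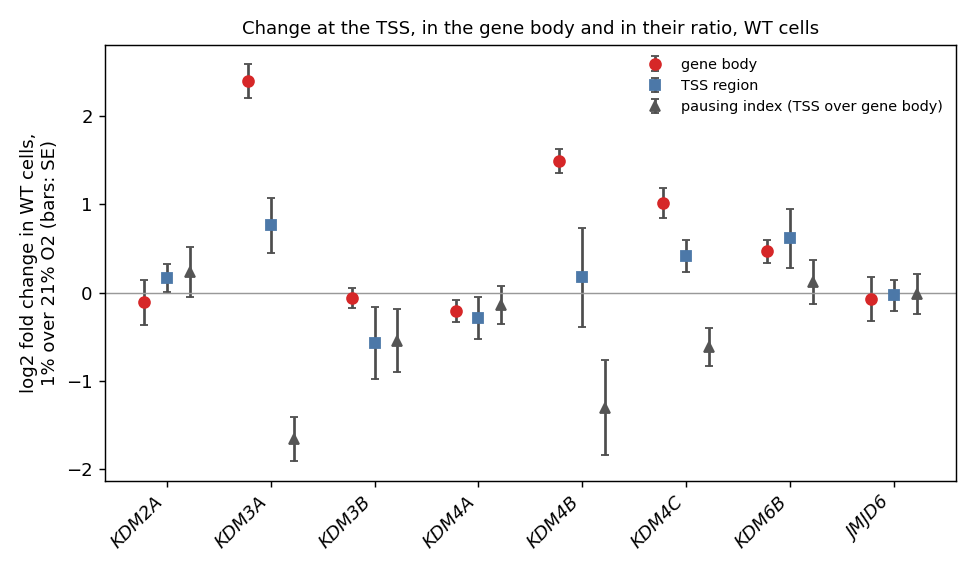
Log2 fold change of 1% over 21% O2 in WT cells (y axis) in the gene body (circles), at the TSS (squares), and in the pausing index (triangles), with bars for the SE from edgeR; KDM2B and KDM5B are left out for lack of TSS reads. For KDM3A the gene body value of 2.39 exceeds the TSS value of 0.76, and the pausing index lies at −1.66.

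The pausing index, the read density per bp at the TSS over that in the gene body, is a measure of how far polymerases gather at the promoter relative to those in elongation. At KDM3A it was 8.52 and 6.35 in WT normoxia and 3.22 and 2.33 in WT hypoxia, without overlap. Its log2 fold change in WT cells was −1.66 (SE 0.246, adjusted p = 0.00943 from edgeR's test), and KDM3A was the 1 member called, against 0.186% of the 14494 genes called lower. The call was lost when replicate 1 of WT normoxia was left out (−1.46, adjusted p = 0.271 from edgeR's test), and likewise for replicate 2 of WT hypoxia (−1.43, adjusted p = 0.388 from edgeR's test). The HIF1A-/- libraries gave KDM3A an index of 2.86 and 5.39 in normoxia against 2.90 and 5.19 in hypoxia, where the spread between replicates was wider than any change. The whole libraries differed in the same way, since the median index over all genes was 5.83 and 9.29 in HIF1A-/- normoxia against 10.5 and 9.76 in WT normoxia, and the part of this in the lower normoxic values of KDM3A was not tested. No member was called in HIF1A-/- cells (0% of all genes) or for the difference between the genotypes (0.0207% of all genes), by edgeR's test. At an unadjusted p under 0.05 there were 0 members in HIF1A-/- cells, where 106 of all genes were higher and 133 lower. For the difference between the genotypes there were 2, both lower, where 78 of all genes were higher and 205 lower. The difference was −1.52 for KDM3A (SE 0.367, adjusted p = 0.598 from edgeR's test).

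KDM4C had an index of 32.7 and 39.9 in WT normoxia and 30.3 and 24.8 in WT hypoxia, and of 31.7 to 47.3 in HIF1A-/- cells. Its log2 fold change in WT cells was −0.62 (SE 0.218) and was not called (adjusted p = 0.858 from edgeR's test). For KDM4B the index was 6.56 and 1.39 in WT normoxia and 1.604 and 1.89 in WT hypoxia, and its log2 fold change of −1.30 (SE 0.537, adjusted p = 0.858 from edgeR's test) was 0.09 without replicate 1 of WT normoxia. At KDM2A the index ran from 10.5 to 37.3 over the 8 libraries. At KDM6B it was 0.271 to 0.627, so that read density in the gene body exceeded that in the TSS region chosen for the gene in every library.

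Other genes of histone methylation showed no called change in WT hypoxia, and those named here, relatives of the members and the extremes of each list, were chosen after their values were seen. The members and the lists were also set with earlier results of these data known. The contrast between them is therefore a description and not a test. Of 20 other JmjC genes, 18 were tested in the gene body and 0 were called by edgeR's test, 0 had an unadjusted p under 0.05, and their median log2 fold change was −0.02, equal to that of all genes. Over all gene bodies, 585 were higher and 184 lower at an unadjusted p under 0.05. The other JmjC genes ranged from −0.51 for RIOX1, a ribosomal oxygenase, to 0.43 for KDM7A, a demethylase of H3K9 and H3K27. KDM6A, the other H3K27 demethylase, had 0.09, and KDM5A and KDM5C, relatives of KDM5B, had 0.22 and 0.20. HIF1AN, the asparaginyl hydroxylase that acts on HIF, had −0.04. The flavin-dependent demethylases KDM1A and KDM1B, which use oxygen but no JmjC domain, had 0.002 and −0.16. Of 26 histone methyltransferase genes, 25 were tested, 0 were called, and 0 had an unadjusted p under 0.05, with a median of −0.14. Their lowest value was −0.39 for SUV39H1, an H3K9 methyltransferase, and their highest 0.34 for SMYD2. In HIF1A-/- hypoxia 0 genes of these lists were called either. In the same WT comparison, 11 of 12 reference HIF targets were called higher, with a median of 2.16 and a range of 1.21 to 4.82. KDM3A lay above the median of this list, KDM4B below it, and KDM4C below its whole range. The 8 reference targets with the smallest p were PFKFB4 (2.64), PDK1 (2.70), BNIP3 (2.66), LDHA (1.66), EGLN1 (1.38), VEGFA (1.21), ANKRD37 (4.82), and EGLN3 (2.17). They serve glycolysis, mitophagy, oxygen sensing, and angiogenesis, among other functions. CA9 was the exception, at 2.15 (adjusted p = 0.705 from edgeR's test).

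**Figure D4:**
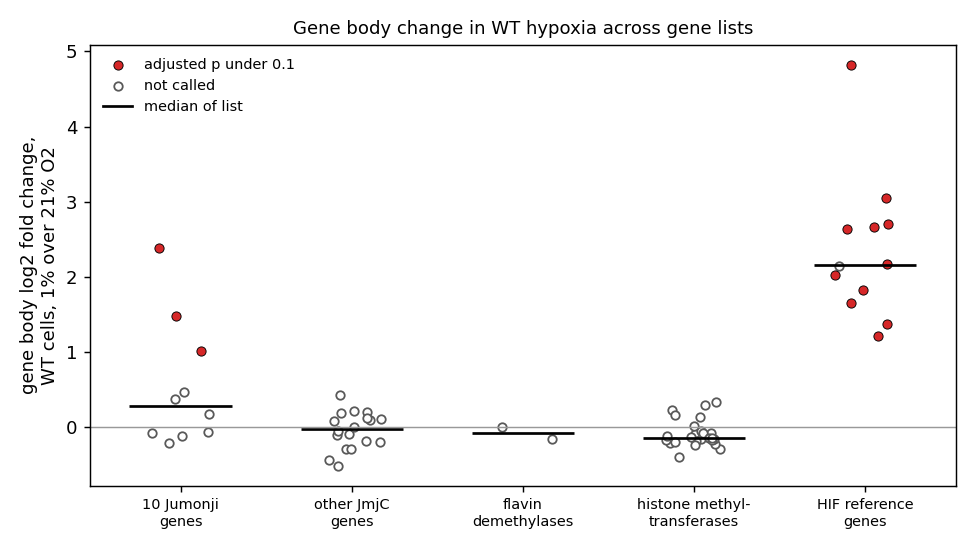
Gene body log2 fold change of 1% over 21% O2 in WT cells (y axis) for the genes tested in each list (x axis), filled where the adjusted p from edgeR was under 0.1, with a line at the median of the list. The filled points are 3 of the 10 members and 11 of the 12 reference HIF targets, while the other JmjC genes, flavin demethylases, and histone methyltransferases stay between −0.51 and 0.43. Members and lists were chosen with earlier results of these data known.

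Across the 8 libraries, the gene bodies whose log2 CPM followed that of KDM3A most closely, among 16685 others, were MIR210HG, the host transcript of a microRNA (Pearson's r = 0.997), RIC1 (0.994), and QSOX1, a sulfhydryl oxidase (0.991). Among the members, KDM4B (0.981) and KDM4C (0.915) were the most similar to KDM3A. With the WT hypoxia libraries so far from the other 6, these values mainly rank genes by that one contrast, and they are given as a description without a test.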

How the data were processed

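PRO-seq libraries of HCT116 WT and HIF1A-/- cells, strand-specific per the labels, were grouped by genotype and oxygen level from their labels, with 2 replicates in each of 4 groups. The deposited values are raw counts that the authors made with featureCounts (Subread 1.6.2 in the submitters' processing notes) from reads aligned to GRCh37 with HISAT2 2.1.0 without spliced alignment, after keeping mapping qualities above 10 and merging 2 sequencing runs. For each RefSeq gene with a transcript of at least 1500 bp, the authors kept 1 TSS region (50 bp before to 500 bp past the start) and 1 gene body (from 1001 bp past the start), which fixes which start and which part of a gene a value describes. Whether counting used strand is not given in the sources used here.

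Genes with over 0.5 CPM in at least 2 libraries entered edgeR 4.0.16 in R 4.3.3, where TMM factors were computed and the quasi-likelihood test (glmQLFit, then glmQLFTest, two-sided) was run on 1 fit of the 4 group means per table. CPM used effective library sizes, except for HIF1A and the cell type markers, where library totals were used, and log2 CPM had a prior count of 2. The pausing index was tested in 1 fit of both tables with a term for each library, and its printed values are raw counts per bp at the TSS over those in the gene body. Benjamini-Hochberg adjustment covered every gene tested in a comparison, and a call required an adjusted p under 0.1. Intervals are 95% intervals of the fitted log2 fold change. Scripts were tested on simulated counts.

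The 10 members and the gene lists were chosen with earlier results of these data known. The genes named by rule are all members, any gene of the other lists called in a hypoxia comparison of gene bodies (at most 8), and the 3 gene bodies most correlated with the member of smallest p in WT hypoxia. Relatives of the members, the extremes of the other lists, and the reference HIF target not called were named after their values were seen. Gene spans came from the GENCODE annotation, and promoter windows were read at the TSS of the files. Alternatives were DESeq2 1.42.0, RLE factors, library totals without TMM, other low-count filters, fits of the compared groups alone, each library left out, and the replicate number as a block. Same-numbered libraries deviated together from their group means in all 6 pairs of groups (r of 0.484 to 0.79 across gene bodies and 0.216 to 0.519 across TSS regions). The shared numbers in the labels were therefore taken to pair the samples. The main fits of group means did not use this pairing, and only the fits with the replicate block did. Signal tracks of the merged replicates were not analysed here.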

Additional observations from a re-analysis of the deposited data

Results flagged for a closer look

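The response to hypoxia differed between the genotypes for 2 members by a test of the difference itself. KDM3A gene body reads responded more strongly in WT than in HIF1A-/- cells by 2.07 on the log2 scale (SE 0.257), and both WT pairs of the same replicate number rose, by 2.20 and 2.55. KDM4B differed by 1.49 (SE 0.182), with increases of 1.53 and 1.45 in the WT pairs. Each had an adjusted p of 0.0799 in edgeR's quasi-likelihood test.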

How the results depend on the processing

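The gene body calls between the genotypes in hypoxia for KDM3A, KDM4B, and KDM4C held in every alternative run. With the replicate number as a block, edgeR called 5 members in WT hypoxia (KDM5B and KDM6B added), 6 between the genotypes in hypoxia, and 2 in normoxia, against 5.51%, 28.2%, and 10.3% of all gene bodies. DESeq2 with the replicate block called 5, 5, and 1, against 6.16%, 23.2%, and 9.4%. At the TSS between the genotypes in hypoxia, 1 member (KDM3A) was called with the replicate block by edgeR and by DESeq2, without a low-count filter, and in the fit of the compared groups alone, where 14.4%, 7.12%, 6.01%, and 5.76% of all TSS regions were called. For the difference in gene body response, 0 members were called with library totals only and 0 with the filter at 2 CPM, against 0.036% and 0.0539% of all gene bodies. Without a low-count filter, the pausing index was called for 2 members in WT hypoxia (KDM3A and KDM4B) and for 1 (KDM3A) in the difference between genotypes, against 0.452% and 0.128% of all genes. KDM4B in HIF1A-/- hypoxia, near 0, turned from −0.004 to 0.032 with library totals only and to 0.0083 with the filter at 2 CPM.

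Leaving out 1 library at a time, with the lone library of its group assumed to vary like the other groups, gave 0 to 3 members called in WT gene bodies, 0 to 2 for the difference in response, and 0 to 1 for the WT pausing index. Single-member values were followed for the gene body response of every member in each genotype. Elsewhere only chosen members were followed, so other sign changes are not listed. Among the values followed, those that changed sign in WT gene bodies were KDM2A (−0.33 to 0.10) and JMJD6 (−0.41 to 0.36). In HIF1A-/- gene bodies they were KDM2A (−0.28 to 0.21), KDM4B (−0.14 to 0.15), and KDM5B (−0.20 to 0.34). For KDM4B in WT hypoxia they were the TSS (−0.49 to 1.54) and the pausing index (−2.09 to 0.088). None of these was called in the main analysis. For the numbers of members called, 172 alternatives kept the call or stayed within 1.5 times the number, and 5 moved beyond that. A call was gained in 7 and lost in 13. For the single-member values followed, 560 kept direction and side of the threshold, 15 changed sign, 19 became called, and 30 lost the call. The replicate block changed no call of a member beyond those given here and in the results. The TSS values of KDM2B and KDM5B rest on at most 7 reads per library at the start the files use, and with 2 libraries per group an uncalled member may still have changed.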
